A study of Mus musculus with 24 samples.

Results

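The comparison asked whether deleting Phf6 had another effect on RNA levels in multipotent progenitors (MPP) than in haematopoietic stem cells (HSC). It used the 16 HSC and MPP libraries of the 24 in the series, 1 of each population from each of 8 mice. For every gene the change from HSC to MPP was taken within a mouse and then compared between 4 mice whose Phf6 status is given as deleted and 4 whose status is given as intact, called controls here. The result is the effect of deletion in MPP minus the effect of deletion in HSC, on the log2 scale, and a positive value means that deletion moved the gene upward more, or downward less, in MPP. The 8 libraries of the HPC-1 progenitors were made with another kit and were left out.

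All 16 libraries came from bone marrow that had been depleted of lineage-positive cells and sorted with antibodies to cKIT, SCA1, CD150 and CD48. The strain label reads Phf6lox/Y;Tie2-creTg/+ for the deleted and the control mice alike, and whether the controls carried Cre is therefore unknown here. Tie2-cre is active in endothelial as well as haematopoietic cells, so the marrow environment of the deleted mice may also lack Phf6. Each of 4 litters gave 1 deleted mouse and its control littermate, and no age is given. The mouse and its litter are named by the litter number below.

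Phf6 lies on the X chromosome and encodes a zinc-finger protein of the nucleolus and nucleoplasm that binds the NuRD chromatin remodelling complex and is mutated in human T-cell leukaemia. HSC maintain blood formation for life and divide rarely, while MPP arise from them, divide more often and lose the capacity for long-term self-renewal. In the sort used here CD150, the product of Slamf1, marks HSC, and MPP lack it.

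Total counts ran from 9658167 to 22133635 per library. Slamf1 was at 67.4 ± 14.3 CPM (the count relative to its library's total, on a scale shared by all libraries; SD, n = 4) in control HSC and 36.3 ± 19.2 CPM in deleted HSC, against 1.90 ± 0.62 and 1.26 ± 1.56 CPM in control and deleted MPP. The lowest HSC library, a deleted one, held 8.99 CPM of Slamf1 and the highest MPP library 3.497 CPM, so the populations did not overlap. Flt3, a receptor that appears as stem cells become MPP, was at 43.4 and 39.3 CPM in control and deleted HSC and at 446 and 543 CPM in control and deleted MPP. In 1 library, that of MPP from deleted mouse 3, the 10 most abundant genes took 9.339% of the counts, against 2.948% to 5.083% in the other 15. Its 14710 genes with a count lay inside their range of 14212 to 16479. Values that moved by over 1.5 times without deleted mouse 3 are given with and without it. In bulk RNA, fewer cells of one kind and less RNA per cell cannot be told apart.

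Phf6 itself (Entrez gene 70998, chromosome X, 52912214 to 52956961 on GRCm38) fell in both populations. In HSC the controls of litters 1 to 4 held 183, 218, 240 and 222 CPM and the deleted mice 36.8, 53.2, 54.0 and 79.9 CPM. In MPP the controls held 196, 172, 234 and 184 CPM and the deleted mice 49.6, 68.7, 49.7 and 55.9 CPM. The groups did not overlap in either population. The log2 fold change was -1.95 ± 0.22 (SE) in HSC and -1.82 ± 0.18 in MPP, both past the threshold (edgeR adjusted p under 0.05). With litter as a block the edgeR adjusted p of Phf6 in HSC was 0.0606, no longer past it, and 0.0493 in MPP. In HSC it was also not past the threshold without any 1 of 6 of the 8 mice, at adjusted p of 0.0847 to 0.253, while the log2 fold change stayed at -2.17 to -1.78 over all 8. Their difference was 0.18 ± 0.24 (edgeR unadjusted p = 0.466), with a 95% interval of -0.34 to 0.70.

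No gene had a deletion effect that differed between MPP and HSC past the threshold. Of 14561 genes tested, 0 passed (0%), and the smallest edgeR adjusted p was 0.974. At an unadjusted p under 0.05 there were 570 genes (3.91%), of which 318 (2.18%) had the higher value in MPP and 252 (1.73%) the lower. DESeq2 called 1 gene, Galnt3, a glycosyltransferase gene, as lower, with 879 genes at an unadjusted p under 0.05, and limma-voom called 0, with 625. Without any 1 of the 8 mice edgeR again called 0. The genes at an unadjusted p under 0.05 then numbered 358 without control mouse 1, 373 without control mouse 2 and 1041 without deleted mouse 2, and lay within 1.5 times of 570 for the other 5 mice. Over all genes tested the median difference was 0.04, and 7774 genes (53.4%) had a positive value.

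The spread between mice set how small a difference could have been seen. The median standard error of the difference was 0.352, and its 95% interval reached 0.774 to each side of the value in the median gene, on the log2 scale. The interval lay inside -1 to 1, which is to say within a 2-fold difference in either direction, for 6425 genes (44.1%). Among the 10184 genes with a mean level of at least 10 CPM it did so for 6400 (62.8%). For those genes a difference of more than 2-fold between the populations lay outside the interval, and for the remaining genes it did not. The p-values measure the spread between mice.

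The effects that the difference is made of were themselves sparse. In HSC 1 of 13693 genes (0.0073%) passed, Phf6. In MPP 4 of 13806 genes (0.029%) passed. Phf6 fell (0.00724% of genes tested were called lower), and Lin28b, Serpina3f and H2-Eb1 rose (0.0217% were called higher). Lin28b encodes an RNA-binding protein of fetal stem cells that blocks let-7 maturation, Serpina3f a serine protease inhibitor, and H2-Eb1 a chain of an MHC class II molecule. The MPP count was 22 without deleted mouse 3 and 2 without control mouse 1, 3 or 4 or deleted mouse 1 or 2. At an unadjusted p under 0.05, 1117 genes (8.09%) were found in MPP and 528 (3.86%) in HSC. Whether the number of genes differs between populations was not tested. None of the 3 genes that passed as higher in MPP passed the test of the difference.

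Lin28b (chromosome 10, 45376617 to 45486314) was nearly absent from control MPP and present in control HSC, and it was higher in deleted mice in both. Control HSC held 0.958, 0.603, 3.42 and 2.92 CPM and deleted HSC 2.87, 14.3, 19.8 and 21.4 CPM. Control MPP held 0.0613, 0.0764, 0 and 0 CPM and deleted MPP 4.49, 8.32, 7.03 and 7.32 CPM. The genotypes did not overlap in MPP, and in HSC only the deleted mouse of litter 1 lay within the range of the controls. In summed counts there were 943 against 103 in HSC, a deleted to control ratio of 6.81 after scaling (95% interval 5.55 to 8.43), and 453 against 2 in MPP, a ratio of 216 (59.4 to 1790). These intervals cover counting error only. The fitted difference of 4.64 ± 1.11 (edgeR unadjusted p = 0.00151) depends on the prior count, since control MPP held 2 counts in all. Serpina3f (chromosome 12, 104214544 to 104221129) was at 5.26 to 16.1 CPM in control HSC, 17.5 to 34.5 in deleted HSC, 12.1 to 18.1 in control MPP and 43.3 to 58.8 in deleted MPP. The genotypes did not overlap in either population, and the difference was 0.67 ± 0.37 (unadjusted p = 0.0973). Reads of Serpina3f may be shared with its near-identical neighbours in the Serpina3 cluster.

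**Figure D1:**
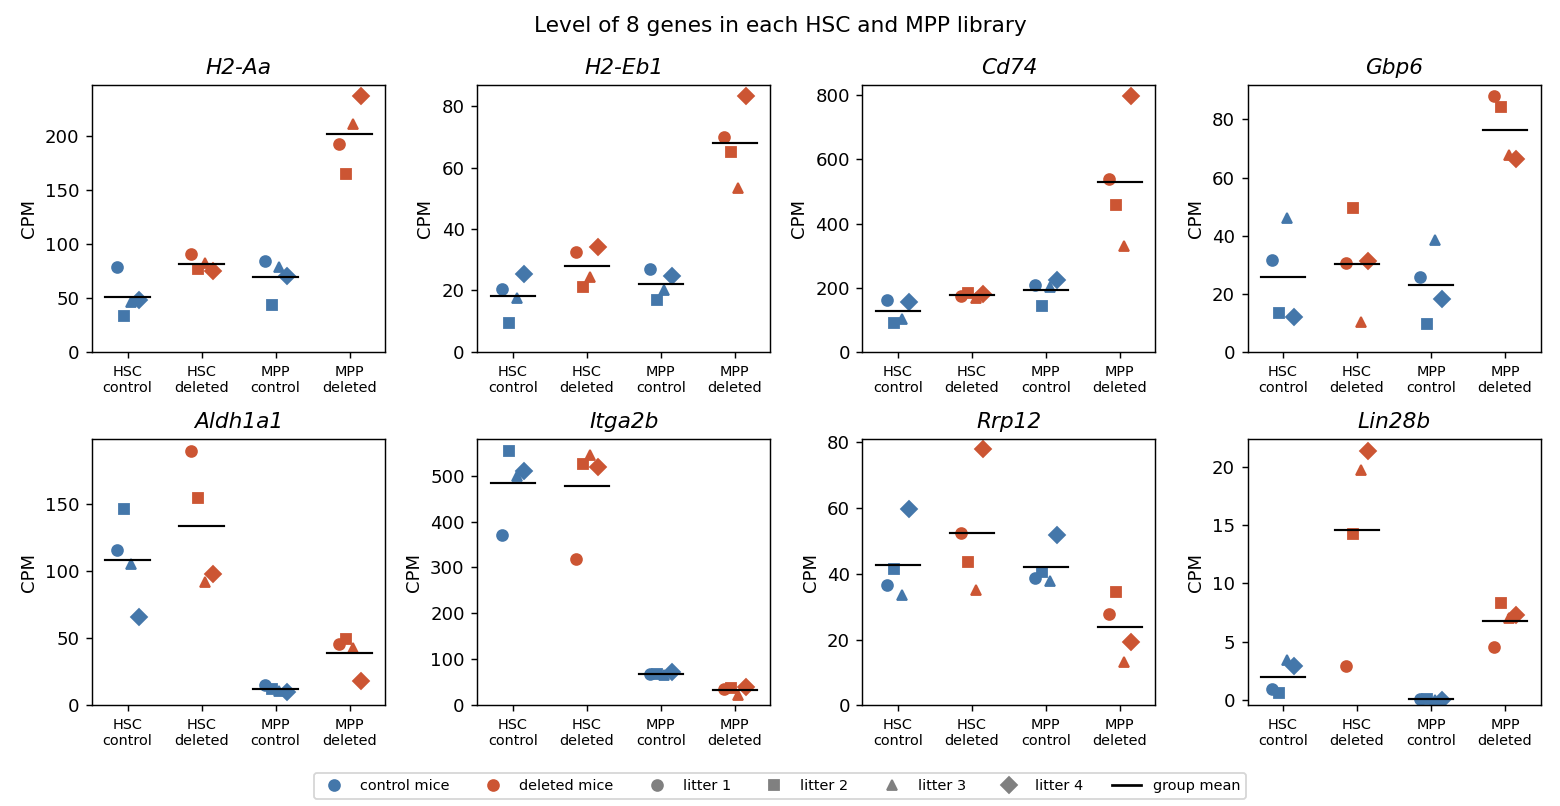
Level of 8 genes, in CPM on a linear axis, in each of the 16 libraries; a point is a library, its shape the litter and a black line the group mean. H2-Aa, H2-Eb1 and Cd74 are highest in the 4 deleted MPP libraries, and Lin28b is at or near 0 in all control MPP libraries.

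No MHC class II presentation gene passed the test of the difference. H2-Aa, H2-Eb1 and Cd74 had the lowest p of the list, each with a positive value. Class II molecules present peptides to helper T cells on antigen-presenting cells, and stem and progenitor cells also express them at a lower level. CIITA switches the genes on, and the invariant chain Cd74 and the H2-DM proteins load the peptide. In the promoters a conserved Y box, bound by the factor NF-Y, lies close to the start. To show that element for the 2 class II chains with the lowest p, the 150 bases before the start are printed 5′ to 3′ on the gene's strand, with the Y box in capitals, from RefSeq's GRCm38.p6. H2-Aa lies at chr17:34287824-34287973 on the minus strand and H2-Eb1 at chr17:34305717-34305866 on the plus strand.
H2-Aa: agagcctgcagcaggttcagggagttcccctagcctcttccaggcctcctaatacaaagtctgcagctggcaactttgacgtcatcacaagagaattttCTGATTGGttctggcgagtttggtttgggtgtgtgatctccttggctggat
H2-Eb1: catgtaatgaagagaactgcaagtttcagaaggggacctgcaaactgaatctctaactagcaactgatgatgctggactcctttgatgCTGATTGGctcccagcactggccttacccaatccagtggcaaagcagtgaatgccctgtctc
The Y box CTGATTGG began 51 bases before the start of H2-Aa and 62 bases before that of H2-Eb1. The Y box was searched on both strands from 250 bases before to 50 after the start. It was in 4 of the 8 class II genes that matched the table (H2-Aa, H2-Eb1, H2-Eb2 and H2-Oa), against 1271 of all 27025 genes there. Counted by promoter, it was in 44.4% of the list's 9 and in 4.1% of all 32851. A match is a string of letters and says nothing of binding.

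H2-Aa, an alpha chain (chromosome 17, 34282744 to 34287823), was at 78.4, 32.9, 46.0 and 47.8 CPM in control HSC and at 90.5, 76.9, 82.3 and 75.0 CPM in deleted HSC. In MPP it was at 84.1, 43.2, 78.8 and 70.4 CPM in controls and at 193, 165, 212 and 238 CPM in deleted mice. Deleted MPP thus lay above every other library, while control HSC and deleted HSC overlapped through control mouse 1. From HSC to MPP it changed by 0.10 to 0.78 (log2) in the 4 control mice and by 1.09 to 1.66 in the 4 deleted mice, without overlap. The difference of the effects was 0.85 ± 0.22 (95% interval 0.37 to 1.32, edgeR unadjusted p = 0.00237), made of 0.66 ± 0.24 in HSC and 1.54 ± 0.23 in MPP.

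H2-Eb1 (chromosome 17, 34305867 to 34316674), a beta chain, was at 20.3, 9.56, 17.7 and 25.2 CPM in control HSC and 32.5, 21.3, 24.4 and 34.1 CPM in deleted HSC. Control MPP held 26.9, 16.8, 20.1 and 24.8 CPM and deleted MPP 70.0, 65.2, 53.3 and 83.3 CPM. The genotypes overlapped in HSC and not in MPP, and the difference was 0.95 ± 0.26 (unadjusted p = 0.00399). Cd74 was at 88.5 to 161 CPM in control HSC, 167 to 184 CPM in deleted HSC, 142 to 224 CPM in control MPP and 331 to 797 CPM in deleted MPP. Its difference was 0.88 ± 0.25 (unadjusted p = 0.00474). H2-Ab1, the beta chain that pairs with H2-Aa, had effects of 0.83 ± 0.20 in HSC and 1.35 ± 0.22 in MPP, with a difference of 0.51 ± 0.25 (unadjusted p = 0.0641).

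Of the 10 class II genes tested 7 had a positive difference, with a median of 0.39 beside 0.04 for all genes tested. The median effect of deletion was 0.55 in HSC and 0.40 in MPP. For 3, H2-Aa, H2-Eb1 and Cd74, all 4 deleted mice lay above all 4 controls, as 1.81% of all genes tested did, and the same 3 had an unadjusted p under 0.05. Of the loading and regulatory genes, Ciita had -0.22 ± 0.61, H2-DMb1 -0.22 ± 0.28, H2-DMb2 -0.60 ± 0.82, H2-DMa 0.04 ± 0.18, H2-Oa 0.50 ± 0.32 and H2-Ob 0.27 ± 0.29. The list's median was 0.25 without deleted mouse 1, 0.29 without deleted mouse 4 and 0.59 without deleted mouse 3. Averaged over the list, the change from HSC to MPP was 0.61, 0.80, 0.63 and 0.75 in control mice 1 to 4 and 1.10, 1.19, 0.34 and 1.32 in deleted mice 1 to 4, so that deleted mouse 3 lay below all controls. H2 genes are a family of related sequence, so reads may be shared among them.

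B cells also carry class II molecules, and markers of B and plasma cells differed among these libraries. Pax5 and Ebf1, which define B cells, were at 0 counts in all 16 libraries. Igkc, an immunoglobulin light chain gene of plasma and B cells, had 1301 of its 1305 deleted MPP counts in deleted mouse 4, and no more than 54 counts in any control MPP library. Summed over the 14 markers fixed for B and plasma cells, levels ran from 36.1 to 72.5 CPM in control HSC, 44.2 to 62.6 in deleted HSC, 80.8 to 153 in control MPP and 133 to 372 in deleted MPP. Averaged over the 4 of these markers that were tested, the change from HSC to MPP ran from 0.37 to 1.64 in control mice and from 1.69 to 3.20 in deleted mice, without overlap. Jchain, an immunoglobulin joining chain gene, had 2 counts in deleted against 34 in control HSC and 269 in deleted against 71 in control MPP. Deleted mouse 4 held 226 of these 269, and deleted mice 1 to 3 held 35, 5 and 3. Control MPP held 37, 27, 2 and 5 counts. The fitted difference of Jchain, 6.24 ± 1.61 (edgeR unadjusted p = 0.00253), depends on the prior count. Without deleted mouse 4 the differences were 0.72 ± 0.22 for H2-Aa, 0.93 ± 0.30 for H2-Eb1, 0.66 ± 0.22 for Cd74 and 0.33 ± 0.24 for H2-Ab1, and without deleted mouse 3 they were 0.82 ± 0.21, 0.99 ± 0.26, 1.04 ± 0.21 and 0.68 ± 0.20. Leaving out 1 mouse cannot test the part of B-lineage cells, since the averaged marker change was higher in all 4 deleted mice. That part was not tested.

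The GTPases induced by interferon-gamma, guanylate-binding proteins (Gbp) and immunity-related GTPases that attack membranes around intracellular microbes, were placed in the same direction. Of 19 tested, 17 had a positive difference, with a median of 0.39; the median effect of deletion was 0.46 in HSC and 0.94 in MPP. All 4 deleted mice lay above all 4 controls for 4 of them, against 1.81% of all genes tested, and 5 had an unadjusted p under 0.05, against 2.18%. Without deleted mouse 3 the median was 0.19, with 13 of 19 positive. Gbp genes lie in tandem and resemble each other, so reads may be shared between them.

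Gbp6 (chromosome 5, 105270702 to 105295871) had the largest difference of the list. It was at 31.6, 13.3, 46.0 and 12.2 CPM in control HSC and 30.7, 49.5, 10.2 and 31.1 CPM in deleted HSC, with full overlap. In MPP it was at 25.7, 9.71, 38.4 and 18.1 CPM in controls and 87.9, 84.2, 67.6 and 66.2 CPM in deleted mice, with none. The difference was 1.62 ± 0.42 (95% interval 0.70 to 2.53, edgeR unadjusted p = 0.00252), and 1.23 ± 0.30 without deleted mouse 3. Gbp8 had 0.96 ± 0.29, Gm4951, a predicted immunity-related GTPase, 0.93 ± 0.33, and Gbp4 0.74 ± 0.25. The interferon-stimulated response element, written as GAAA repeated after 2 bases of any kind, was searched on both strands of the same windows. It was in 10 of the 11 genes of the list that matched RefSeq's table, against 1079 of all 27025 genes there. Counted by promoter, it was in 83.3% of the list's 12 and in 3.44% of all. The 10 genes were Gbp2, Gbp3, Gbp5, Gbp7, Gm12250, Igtp, Irgm1, Irgm2, Tgtp1 and Tgtp2. Gbp4, Gbp6, Gbp8 and Gm4951 were not among the 11.

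The antiviral genes of the type I interferon response had a smaller difference. Of 46 tested, 33 were positive, with a median of 0.23, and 0.10 without deleted mouse 3 (31 positive). Their median effect was 0.43 in HSC and 0.53 in MPP. A single member of the 46 had an unadjusted p under 0.05, with a positive difference, as 2.18% of all genes tested did. It was Trim30a, a ubiquitin ligase family member that restrains inflammatory signalling. Trim30a was at 139 to 170 CPM in control HSC, 124 to 197 in deleted HSC, 156 to 207 in control MPP and 230 to 418 in deleted MPP. Its difference was 0.61 ± 0.28, and 0.32 ± 0.16 without deleted mouse 3. Ifit3b, Ifitm3 and Xaf1 had 2.05 ± 1.10, 0.39 ± 0.21 and 0.39 ± 0.22, and Ifitm3 0.23 ± 0.22 without deleted mouse 4. Upstream of these genes, the 13 interferon receptor and signalling genes had a median of -0.22, with 6 positive; it was -0.06 without deleted mouse 3 and -0.05 without deleted mouse 1. The receptor chain Ifnar1 had -0.45 ± 0.19 and the signal transducer Stat3 -0.38 ± 0.17, and all 4 deleted mice lay below all 4 controls for 2 of the 13, as 1.4% of all genes tested did.

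**Figure D2:**
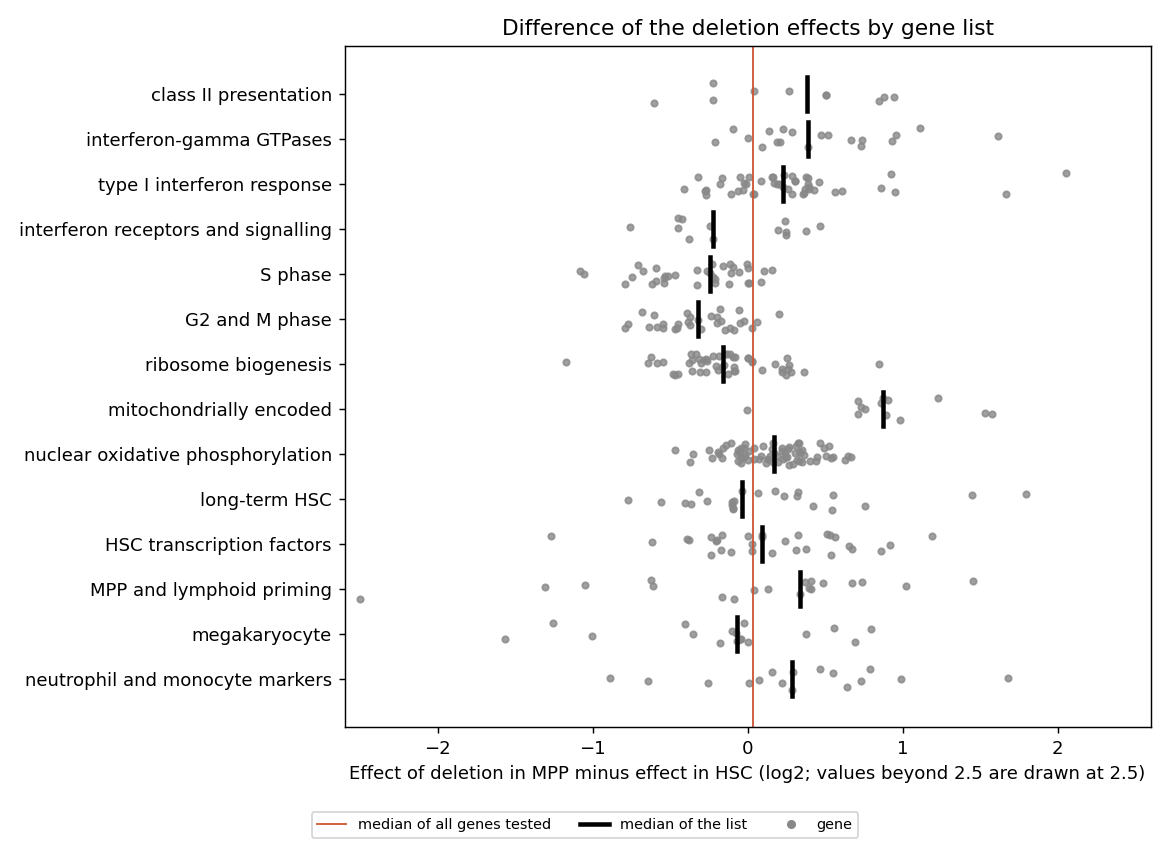
Effect of deletion in MPP minus effect in HSC (log2) for each tested gene of 14 lists; a grey point is a gene, a black bar the list's median and the orange line the median of all genes tested. Class II and interferon-gamma GTPase medians lie at 0.39 and the S phase and G2 and M phase medians at -0.24 and -0.32, while genes of every list lie on both sides of the line.

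Genes of DNA replication and mitosis were placed the other way. Of 35 S phase genes, 30 had a negative difference, with a median of -0.24; the median effect of deletion was 0.00 in HSC and -0.35 in MPP. Of 31 G2 and M phase genes, 28 were negative, with a median of -0.32 from -0.02 in HSC and -0.30 in MPP. At an unadjusted p under 0.05 there were 7 S phase and 4 G2 and M phase genes, all negative, against 1.73% of all genes tested. Without deleted mouse 3 the medians were -0.21 (30 of 35 negative) and -0.23 (26 of 31 negative). Although MPP are described above as dividing more often, RNA of both lists was lower in control MPP than in control HSC. The median change from HSC to MPP in controls was -0.61 for S phase and -1.08 for G2 and M phase.

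Rrm1, the large subunit of ribonucleotide reductase, was at 401, 431, 452 and 480 CPM in control HSC and 519, 530, 457 and 342 CPM in deleted HSC. In MPP it was at 293, 263, 301 and 246 CPM in controls and 252, 238, 158 and 134 CPM in deleted mice. The genotypes overlapped in both populations, deleted mice 3 and 4 being lowest in MPP. The difference was -0.59 ± 0.18 (edgeR unadjusted p = 0.00787). Mcm6, a subunit of the replicative helicase, had -0.54 ± 0.20, the replication factor Mcm10 -1.08 ± 0.43 and the histone chaperone subunit Chaf1a -0.67 ± 0.27.

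Of the mitotic genes, Bub1b, a spindle checkpoint kinase, was at 123 to 175 CPM in control HSC and 85.4 to 174 CPM in deleted HSC. Control MPP held 71.6, 71.6, 75.9 and 67.9 CPM and deleted MPP 48.2, 73.4, 33.6 and 22.5 CPM. Deleted mouse 2 lay with the controls and the other 3 below them. Its difference was -0.79 ± 0.26 (unadjusted p = 0.0108). Tpx2, a spindle assembly factor, had -0.68 ± 0.22, cyclin B1 (Ccnb1) -0.54 ± 0.23, at -0.35 without control mouse 3, and the midzone protein Prc1 -0.45 ± 0.20. Summed over the G2 and M phase list, deleted mouse 4 had the lowest level in both populations, 2142 CPM in HSC and 660.9 CPM in MPP. The other 3 deleted MPP libraries, at 1704 to 1871 CPM, lay inside the range of control MPP, 1584 to 1968 CPM. Without deleted mouse 4 the list's median difference was -0.26. Averaged over the S phase list, the change from HSC to MPP was -0.40, -0.56, -0.78 and -0.60 in control mice 1 to 4 and -0.70, -0.73, -1.22 and -1.05 in deleted mice 1 to 4, so that control mouse 3 lay among the deleted mice.

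Ribosome biogenesis genes, which build and process ribosomal RNA in the nucleolus where Phf6 protein is found, were lower by a smaller amount. Of 50 tested, 35 had a negative difference, with a median of -0.16. Averaged over the list, the change from HSC to MPP was -0.04, -0.18, -0.15 and -0.14 in control mice 1 to 4 and -0.37, -0.21, -0.27 and -0.25 in deleted mice 1 to 4, without overlap. Without deleted mouse 3 the median was -0.14, with 42 of 50 negative.

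Wdr43, a subunit of the early pre-ribosome, was at 232 to 302 CPM in control HSC and 296 to 457 CPM in deleted HSC. It was at 298, 274, 338 and 276 CPM in control MPP and 298, 304, 190 and 278 CPM in deleted MPP, with overlap in both populations. Its difference was -0.58 ± 0.17 (edgeR unadjusted p = 0.00505), from 0.44 ± 0.17 in HSC and -0.15 ± 0.18 in MPP. Rrp12, which helps export the subunits, was at 33.4 to 59.5 CPM in control HSC and 35.2 to 77.7 in deleted HSC, and at 37.9 to 51.7 CPM in control MPP and 13.1 to 34.5 in deleted MPP. Its difference was -1.17 ± 0.34 (unadjusted p = 0.00532), and the genotypes did not overlap in MPP. Utp15, a subunit of the small-subunit processome, had -0.64 ± 0.20, and Nop56, a core protein of box C/D particles, -0.62 ± 0.22. For these 4 genes, 4 of the 50, all 4 deleted mice lay below all 4 controls in the change from HSC to MPP, against 1.4% of all genes tested. They were named for their low p in that contrast.

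**Figure D3:**
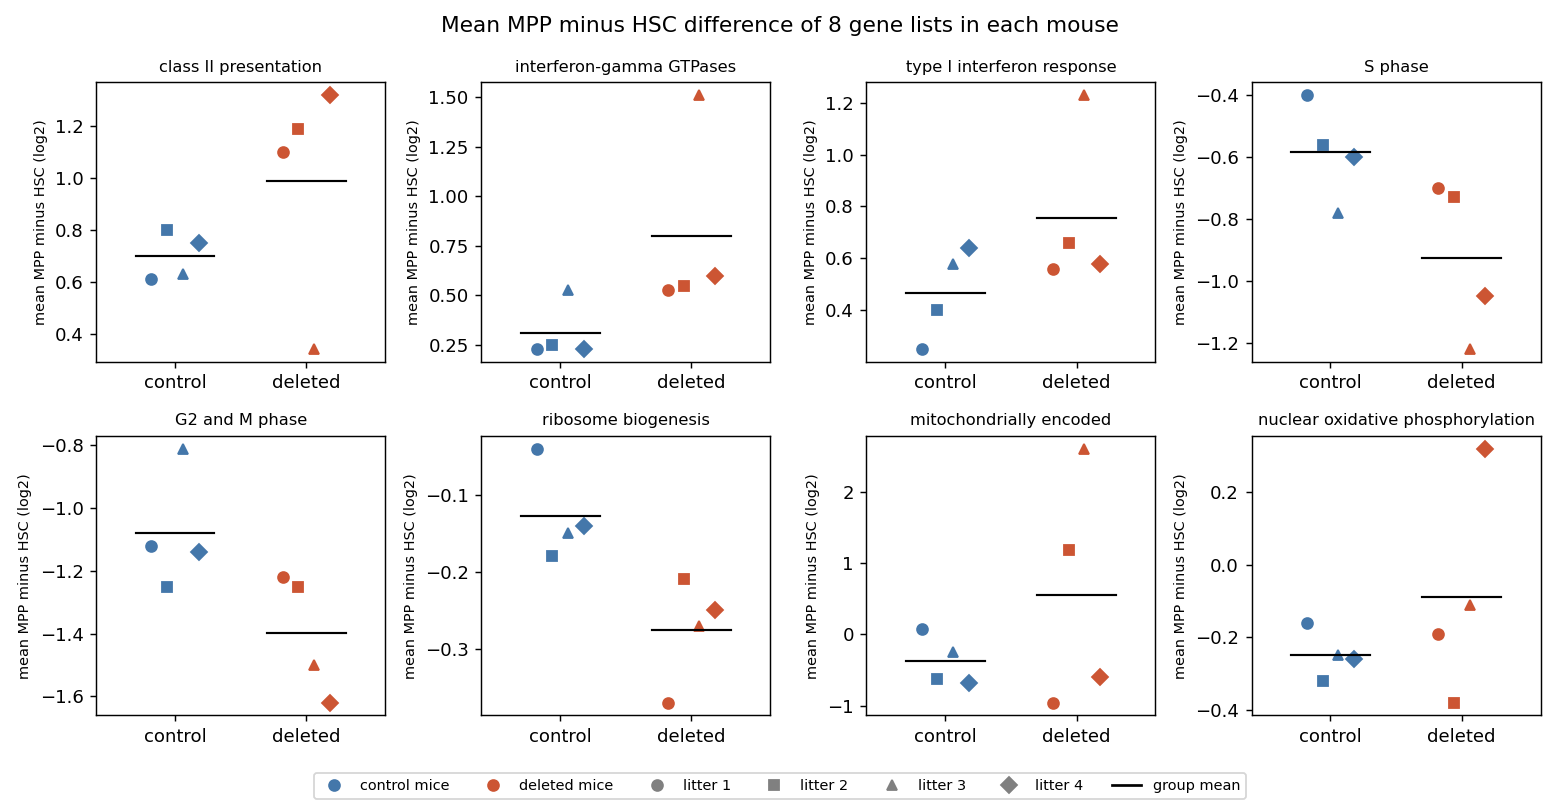
Mean change from HSC to MPP (log2) over the genes of 8 lists in each of the 8 mice; a point is a mouse, its shape the litter and a line the genotype mean. The 4 deleted mice lie below the 4 controls for ribosome biogenesis, while for the mitochondrially encoded genes deleted mice 2 and 3, at 1.19 and 2.61, lie above the other 6 mice.

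Mitochondrially encoded genes, the 13 subunits of the respiratory chain made inside the organelle, had the largest median of the 14 lists plotted, 0.87, with 12 of 13 positive and 0 at an unadjusted p under 0.05. The value rested on 1 mouse: it was 0.24 (10 of 13 positive) without deleted mouse 3 and 1.31 without deleted mouse 1. COX2 was at 601, 815, 382 and 448 CPM in control HSC and 971, 180, 106 and 411 CPM in deleted HSC. In MPP it was at 501, 342, 293 and 484 CPM in controls and 565, 714, 1471 and 324 CPM in deleted mice. Deleted mouse 3 was lowest of all in HSC and highest of all in MPP. The 72 nuclear genes of oxidative phosphorylation had a median of 0.17 (50 positive), 0.16 without deleted mouse 3 and -0.01 without deleted mouse 4; Ndufb6 had 0.67 ± 0.25 and Atp5j 0.45 ± 0.20.

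The stem cell and lineage programs showed no common direction. The 23 long-term HSC genes had a median of -0.03 (11 positive; 0.18 without control mouse 3) and the 30 HSC transcription factors 0.09 (19 positive). Clca3a1, of the chloride channel accessory family, was the HSC gene with the lowest p. It was at 8.49, 23.95, 16.4 and 27.6 CPM in control HSC, 39.8, 32.8, 38.6 and 72.6 CPM in deleted HSC, 0.674, 1.53, 0.456 and 1.08 CPM in control MPP and 4.44, 5.32, 5.37 and 9.17 CPM in deleted MPP. The genotypes did not overlap in either population, and the difference was 1.45 ± 0.38 (edgeR unadjusted p = 0.00269). Mllt3, a regulator of HSC maintenance, had 0.76 ± 0.23, with -0.09 ± 0.18 in HSC and 0.62 ± 0.20 in MPP, and Ly6a, which encodes SCA1, a marker of the sort, had 0.54 ± 0.21. Among the transcription factors Hoxa5 had 0.86 ± 0.38, Tal1 0.67 ± 0.29 and Ndn 0.56 ± 0.25. Without deleted mouse 3 these were 0.52 ± 0.30, 0.40 ± 0.23 and 0.30 ± 0.15.

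MPP and lymphoid priming genes had a median of 0.34 (12 of 19 positive), but -0.14 without control mouse 1 and 0.15 without deleted mouse 3. Ikzf1 and Bcl11a, transcription factors of lymphoid development, had 0.68 ± 0.22 and 0.74 ± 0.28, and Bcl11a 0.48 ± 0.20 without deleted mouse 3. Cd27 had 0.41 ± 0.19. Of the list, 7 members had a negative difference.

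The 17 megakaryocyte genes had a median of -0.07, with 12 negative. The median was 0.05 without control mouse 1, -0.23 without deleted mouse 1 and -0.01 (9 negative) without deleted mouse 3. Itga2b (chromosome 11, 102453297 to 102469883), the integrin alpha IIb chain of platelets and a marker of megakaryocyte-primed stem cells, was at 371, 554, 499 and 510 CPM in control HSC and 318, 525, 544 and 518 CPM in deleted HSC. In MPP it was at 67.5, 68.3, 66.4 and 73.9 CPM in controls and 35.2, 38.4, 22.1 and 40.7 CPM in deleted mice, without overlap. The difference was -1.01 ± 0.28 (edgeR unadjusted p = 0.00414), and -0.76 ± 0.19 without deleted mouse 3. Selp, platelet P-selectin, had -1.25 ± 0.45, while the platelet chemokine gene Pf4 had 0.69 ± 0.28.

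The lineage depletion included GR1, a neutrophil antigen, and markers of mature neutrophils and monocytes had a median of 0.29 (13 of 16 positive), but -0.01 without control mouse 1 and 0.74 without deleted mouse 2. S100a8 was at 2621, 1242, 223 and 1384 CPM in control HSC and 1509, 1497, 467 and 2762 CPM in deleted HSC. It was at 973, 988, 74.9 and 962 CPM in control MPP and 1288, 733, 663 and 4971 CPM in deleted MPP. Deleted mouse 4 was highest and control mouse 3 lowest in both populations. Its difference was 0.99 ± 0.42. The summed level of the 16 markers ran from 629 to 7715 CPM in control HSC, 1374 to 11190 in deleted HSC, 220 to 2901 in control MPP and 1377 to 14130 in deleted MPP. These cells also express interferon-induced genes, and their part in the interferon lists was not tested.

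By the ranking rule 8 genes in each direction with the lowest unadjusted p are described, none of them past the threshold. Their unadjusted p ran from 0.000648 to 0.00414, and for all 16 the deleted and the control mice did not overlap in the change from HSC to MPP. The ranking used that contrast, so these values describe the genes and support nothing further. Of the 15 with an effect fitted in both populations, 10 had opposite signs in HSC and MPP. All 16 kept an unadjusted p under 0.05 without any 1 of the 8 mice.

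Stk24 (chromosome 14, 121284187 to 121380496), a kinase of the sterile-20 family, had the lowest p. It was at 29.4, 18.0, 21.6 and 27.7 CPM in control HSC and 14.9, 11.3, 17.2 and 13.8 CPM in deleted HSC, all below the controls. It was at 23.6, 17.0, 24.1 and 23.3 CPM in control MPP and 34.2, 21.4, 34.0 and 34.5 CPM in deleted MPP, where only the deleted mouse of litter 2 lay within the range of the controls. The difference was 1.23 ± 0.26 (95% interval 0.65 to 1.81), from -0.76 ± 0.26 in HSC and 0.49 ± 0.22 in MPP. Fancf, a subunit of the Fanconi anaemia core complex for repair of DNA crosslinks, had 1.04 ± 0.26 with effects of -0.53 ± 0.37 and 0.39 ± 0.32. Insig2, which holds the sterol sensor of cholesterol synthesis in the endoplasmic reticulum, had 0.86 ± 0.21 with -0.30 ± 0.21 and 0.56 ± 0.25. Aph1b, a gamma-secretase subunit, had 1.95 ± 0.50 with -0.60 ± 0.45 and 1.09 ± 0.41.

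Aldh1a1 (chromosome 19, 20492583 to 20643463), a retinaldehyde dehydrogenase that makes retinoic acid, was high in HSC whatever the genotype. It was at 116, 146, 105 and 66.0 CPM in control HSC and 190, 154, 91.7 and 97.7 CPM in deleted HSC. In MPP it was at 15.3, 12.4, 10.9 and 10.1 CPM in controls and 46.0, 49.4, 42.7 and 18.4 CPM in deleted mice. The genotypes overlapped in HSC and not in MPP, and the difference was 1.32 ± 0.31, and 1.08 ± 0.25 without deleted mouse 3. Foxq1, a forkhead transcription factor gene, had 0 counts in deleted HSC against 92 in control HSC, and 68 in deleted against 14 in control MPP. Its ratio was at most 0.0304 in HSC and 4.63 (95% counting interval 2.58 to 8.91) in MPP, and its fitted difference depends on the prior count. By litter, deleted MPP held 25, 5, 0 and 38 counts of Foxq1 and control MPP 7, 5, 2 and 0, with overlap. Deleted mouse 3 had 0 counts in both populations, so its change of 0 rests on no reads.

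**Figure D4:**
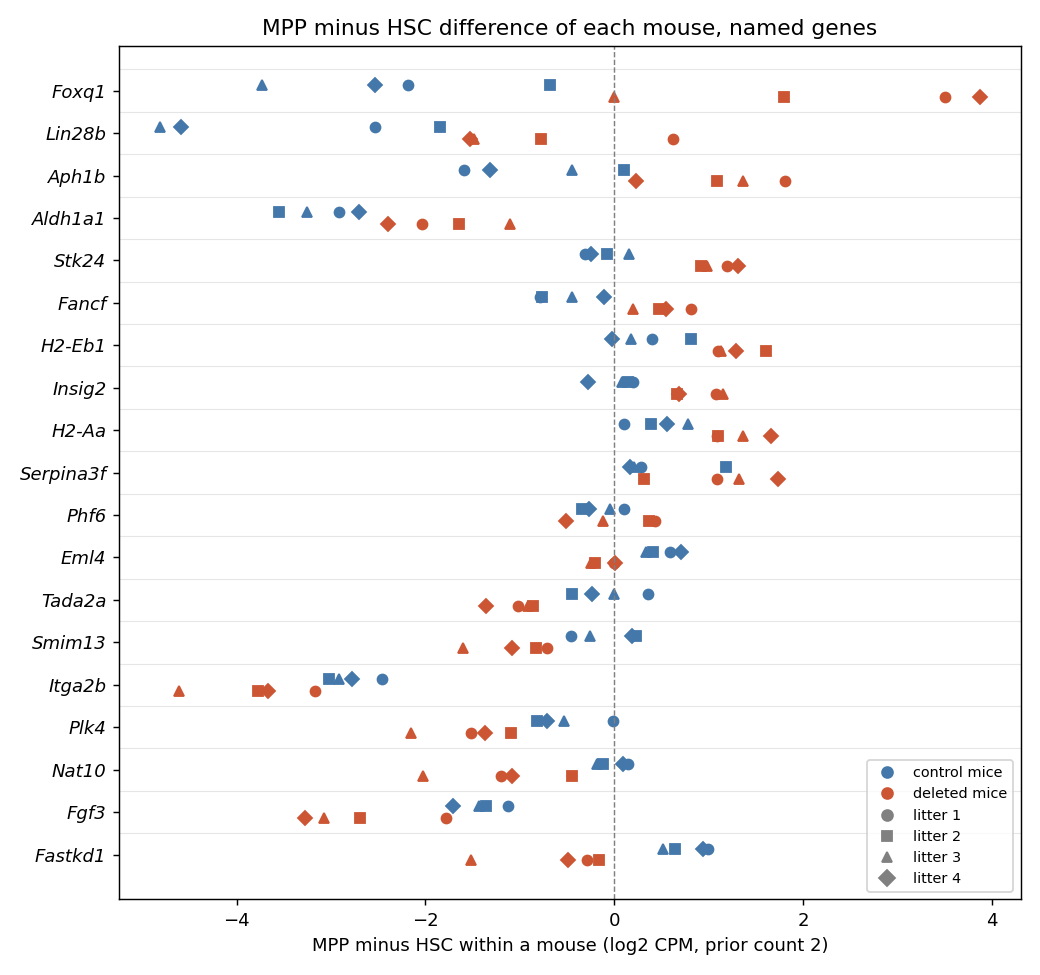
Change from HSC to MPP (log2 CPM, prior count 2) in each mouse for Phf6, the 3 genes higher in deleted MPP and the ranked genes; blue points are control mice, orange points deleted mice and shapes the litter. Deleted and control mice are apart for the 16 ranked genes and H2-Eb1 and overlap for Phf6 and Serpina3f.

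On the lower side, Fastkd1, which acts on mitochondrial RNA, had -1.37 ± 0.34. It was at 14.2, 18.3, 24.2 and 18.0 CPM in control HSC and 32.5, 29.5, 22.6 and 27.4 CPM in deleted HSC. It was at 28.2, 28.6, 34.7 and 34.7 CPM in control MPP and 26.5, 26.3, 7.82 and 19.5 CPM in deleted MPP, all below the controls. Without deleted mouse 3 the difference was -1.10 ± 0.25. Nat10 (chromosome 2, 103721258 to 103762954), an RNA cytidine acetyltransferase of the nucleolus that acts on ribosomal RNA, was at 49.4, 76.0, 81.7 and 69.1 CPM in control HSC and 73.3, 82.2, 113 and 94.8 CPM in deleted HSC. It was at 54.8, 70.0, 72.2 and 73.3 CPM in control MPP and 31.8, 60.2, 27.7 and 44.9 CPM in deleted MPP, with 1 deleted library inside the range of the controls. Its difference was -1.17 ± 0.30, and -0.91 ± 0.22 without deleted mouse 3.

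Plk4, the kinase that starts centriole duplication, had -1.01 ± 0.27, with 0.19 ± 0.22 in HSC and -0.77 ± 0.29 in MPP. Tada2a, an adaptor of histone acetyltransferase complexes, had -0.96 ± 0.25, with 0.58 ± 0.21 and -0.38 ± 0.22. Fgf3, a fibroblast growth factor gene, was lower in deleted libraries of both populations, at 26.8 to 58.5 CPM in control HSC, 18.8 to 38.8 in deleted HSC, 12.3 to 20.6 in control MPP and 2.21 to 5.38 in deleted MPP, and its difference was -1.33 ± 0.36. Smim13, a gene for a small membrane protein, had -0.98 ± 0.27, and Eml4, a microtubule-binding protein gene, -0.62 ± 0.17, with opposite signs in HSC and MPP for both.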

How the data were processed

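Poly(A) RNA of sorted HSC and MPP was amplified with SMART-Seq v4 and Nextera XT and read as paired ends, per the labels' protocols. The authors deposited raw counts per Entrez gene. The submitters' processing notes name bcl2fastq, featureCounts and mm10, while no source read for this work gives the aligner, annotation, versions or strandedness. SMART-Seq is unstranded: a gene and an overlapping or antisense partner share reads that could belong to either. Of 27179 identifiers, 25275 were named from RefSeq's GRCm38.p6 table and 18 from GENCODE.

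In R 4.3.3, edgeR 4.0.16 was run on the counts (TMM scaling, default expression filter with a count of 10 and 15 in total, robust quasi-likelihood test). Terms were mouse, population and population by genotype, with 6 residual degrees of freedom. P-values were adjusted by Benjamini-Hochberg over all genes tested, with a threshold of 0.05. Deletion in HSC and in MPP was fitted over 8 libraries each. The standard error is the log2 value divided by the square root of F. CPM use TMM-scaled library sizes, and changes within a mouse log2 CPM with a prior count of 2. Intervals of counts cover counting error only. The scripts were tested on simulated data.

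The numbers pair the libraries by design, since the labels give 1 mouse for both. Deviations of HSC and MPP of a mouse correlated across genes, at 0.12 to 0.28 for the controls and 0.03 to 0.35 for the deleted mice, where genes are not independent replicates. Deleted mouse 1, at 0.03, correlated more with another mouse (0.06). Replicate libraries all differed by more than sampling noise (chi-square per degree of freedom 17.8 to 234).

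The contrast, the gene lists and the members were chosen with earlier results of these data known. Named genes are Phf6, genes past the threshold in HSC or MPP, the 8 of lowest unadjusted p in each direction (provisional symbols left out, of which there was 1 on the lower side), and up to 4 members of lowest unadjusted p for each list described. A few genes that this rule names are not reported here. Other genes are named to complete a list or a label check. Alternatives were no mouse block, a litter by population block, DESeq2 1.42.0, limma-voom 3.58.1, other size factors, no or a stricter filter (5 CPM in 4 libraries), a non-robust fit, all 24 libraries, and leaving out each mouse.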

Additional observations from a re-analysis of the deposited data

Results flagged for a closer look

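In 76 groups of 4 libraries, 19 genes by 4 groups, a level was marked where its gap to the nearest library, divided by the range of the group, exceeded 0.829. This marked 5 levels, and chance marks about 1 in 20 groups. Stk24 was lowest in litter 2 in both genotypes of MPP, at 16.97 CPM in the control mouse (the next was 23.27) and 21.39 CPM in the deleted mouse (the next was 33.99). Fancf was highest in deleted mouse 3 in both populations, at 56.73 CPM in HSC and 65.35 CPM in MPP, where the next were 21.44 and 29.96. Itga2b was lowest in deleted mouse 1 among the deleted HSC libraries, at 318.4 CPM with the next at 517.9.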

How the results depend on the processing

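Named genes were refitted under 17 other settings, 9 of them another design, tool or filter and 8 without 1 mouse. Of 1222 values of the difference for 72 genes, 1221 kept their direction and 0 passed the threshold; the lowest adjusted p was 0.0565. The exception was Mmp9, at -0.64 with mouse as a block and 0.04 with no replicate block. Without the block, and with a block of mouse and litter by population, the count of genes stayed at 0, as it did without each mouse; DESeq2 called 1. For deletion in HSC the 1 gene became 0 with a litter block, 14 with DESeq2, 2 in a fit of the 4 groups over 16 libraries and 0 to 1 without 1 library. For deletion in MPP the 4 genes became 6 with a litter block, 95 with DESeq2, 17 in the fit of the 4 groups and 2 to 22 without 1 library. The causes were not tested. With 4 mice per genotype, the median standard error of 0.352 limits what could be seen, and genes of low count, such as Foxq1, most.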

Other observations

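The median difference of other lists is given beside 0.04 for all genes tested. Class I presentation genes had a median difference of 0.11 (11 of 16 positive), TNF and NF-kB genes -0.01 (12 of 25), regulators of cyclin-dependent kinases 0.06 (8 of 14), p53 targets 0.05 (13 of 25) and glycolysis genes -0.07 (7 of 20). Averaged over the p53 targets, the change from HSC to MPP was 0.08 to 0.37 in deleted mice and -0.26 to -0.01 in controls. The differences of single p53 targets ran from -1.31 to 4.93. All 4 deleted mice lay above all 4 controls for 0 of the 25, against 1.81% of all genes tested, and below them for 1, against 1.4%. Genes of fetal stem cells and LIN28B, Lin28b among them, had a median of 0.25 (8 of 11), with single members from -1.78 to 10.99. Their averaged change was -0.62 to -0.23 in deleted mice and -1.5 to -0.72 in controls. Neither list was tested. Partners of Phf6 in the NuRD complex had 0.10 (11 of 15) and genes of the PAF1 complex and elongation -0.05 (7 of 19). Myeloid priming genes had -0.21 (9 of 21) and erythroid genes 0.16 (9 of 18). Among the 21 immediate early genes, with a median of 0.06, Myc, a transcription factor gene of growth and ribosome production, was at 393, 368, 366 and 454 CPM in control HSC, 372, 420, 348 and 341 CPM in deleted HSC, 417, 398, 417 and 591 CPM in control MPP and 295, 366, 196 and 266 CPM in deleted MPP. Its difference was -0.62 ± 0.18 (edgeR unadjusted p = 0.00582), and deleted MPP lay below control MPP in all 4 litters. Myc was chosen for its value.

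Connective tissue markers stood out in 1 library: Col1a1, a collagen chain of fibroblasts and bone cells, was at 218.6 CPM in 1 control HSC library and at no more than 1.78 CPM in the other 15.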
